A study of Homo sapiens with 24 samples.

Results

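Gene expression was compared between U251 cells exposed to 1 µM G-1 for 24 h (4 arrays) and U251 cells exposed to the vehicle DMSO for 24 h (4 arrays), which are 8 of the 24 arrays of the series. The arrays were chosen by their titles, G1-24h-1µM and DMSO-24h, and not by any measured value. U251 is an established human glioblastoma cell line, so all arrays come from the same line, and no other glioblastoma cells are in the comparison. All cells had been kept in phenol red-free medium and moved to charcoal-stripped serum, which is poor in steroid hormones, before the exposure, controls included. The 4 replicates of a group are independent cultures, according to the labels. The series also holds an IC50 dose at 24 h and all 3 conditions at 72 h, and these arrays served for the estimate of the spread and for side-by-side values.

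G-1 is a synthetic agonist of the G protein-coupled estrogen receptor, the product of GPER1, and it has also been described to disturb the assembly of microtubules. Cells hold their sterol level with the SREBP transcription factors: when sterols are low, SCAP escorts the SREBP precursors from the endoplasmic reticulum to the Golgi, where they are cut, and the released part enters the nucleus and turns on genes of cholesterol and fatty acid synthesis and of sterol uptake. INSIG proteins hold the complex back when sterols are plentiful. Genes of mitosis are transcribed late in the cell cycle, largely through CCAAT boxes bound by NF-Y and through the cell cycle genes homology region (CHR). Growth factor signals pass through ERK kinases to immediate early genes such as EGR1 and FOSL1, and ERK also turns on its own inhibitors, the Sprouty and DUSP genes.

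The design placed all 4 treated arrays on slide 3, which was scanned in the second session. Of the DMSO arrays, 3 lay on slide 1 and 1 (replicate 2) on slide 2, in the first session, so the treatment and the slide cannot be told apart by the design. The treated arrays had 38.3% to 40.0% of spots well above background, and the DMSO arrays 41.5% to 43.0%. Spike-in controls are RNAs added in known amounts during labelling, and 7 of 10 were above background on all arrays. These had differences between -0.24 and 0.06 log2 (treated minus DMSO), and for 0 of the 7 were the groups apart. The dimmest of the 7 lay at 0.02 on the DMSO arrays, so they do not cover dimmer genes. Of the dimmer controls, E1A_r60_3 and E1A_r60_a104 were higher on the treated arrays by 0.56 and 0.55, with the groups apart. E1A_r60_a107 had a difference of 0.07, with overlap. Levels are given as log2 intensity relative to the 75th percentile of the array, and a difference is always treated minus DMSO on this log2 scale.

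Markers of cell types were read first, and these do not establish the identity of the line. Of 10 astroglial and glioma markers, 8 were above background on all 8 arrays, among them VIM, which encodes the intermediate filament vimentin, NES and SOX9, whereas AQP4 and ALDH1L1 were above background on 0 arrays. No marker of this list passed the test in either direction, and the median difference of the 8 was -0.16. GFAP, the astrocytic intermediate filament, had a difference of 0.63 ± 0.31 (SE; limma, adjusted p = 0.117). With the replicate number as a block its adjusted p was 0.00818. Its other tested probes, at mean levels of 6.09 and 4.85, had differences of 0.34 ± 0.25 and 0.05 ± 0.29. Neither passed without the block. Of 13 markers of other cell types, 5 were above background on all 8 arrays, and PTPRC, CD3E, PECAM1, EPCAM, CDH1 and KRT5 were above background on 0 arrays. Of the 3 tested neuronal markers, RBFOX3 (-1.24 ± 0.25) and SNAP25 (-0.55 ± 0.16) were lower by the test and SYT1 had a difference of 0.12 ± 0.16. The monocyte marker CD14 was higher (0.58 ± 0.11). RBFOX3 also differed between slides, as described with the lower genes, and the part of these markers in other results was not tested.

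The target of the compound was measured as well. GPER1 lay at 2.33, 2.23, 2.68 and 2.34 on the treated arrays and at 2.48, 2.25, 2.47 and 2.28 on the DMSO arrays. The groups overlapped, with a difference of 0.02 ± 0.10 (adjusted p = 0.87). The nuclear receptor genes ESR1, ESR2 and PGR were above background on 0 of the 8 arrays.

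Over the whole array, 19833 probes above background on all 8 arrays were tested, and 13010 genes with a symbol were read by their brightest probe. At an adjusted p under 0.05 and a fold change above 2, 208 probes (1.05%) were called, 88 higher (0.444%) and 120 lower (0.605%). Of the genes, 88 (0.676%) were called, 52 higher (0.4%) and 36 lower (0.277%), and in 84 of these the groups did not overlap. With the 75th percentile taken over the probes detected on all 24 arrays, 38 genes were called higher and 46 lower, and with normexp background correction and quantile normalization 12 higher and 14 lower. Without the fold threshold, 4168 genes (32%) passed, 2860 higher (22%) and 1308 lower (10.1%), and in 31.3% of all genes the 2 groups did not overlap (20.9% with the treated arrays above, 10.4% with them below). The difference was above 0 in 57.6% of the genes. In the following, a gene passed when its adjusted p was under 0.05, and was called when its fold change was above 2 as well. The median difference over all genes was 0.05. Of the called genes, 20 of the 52 higher and 20 of the 36 lower belonged to the dimmest of 5 equal bins of the genes.

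**Figure D1:**
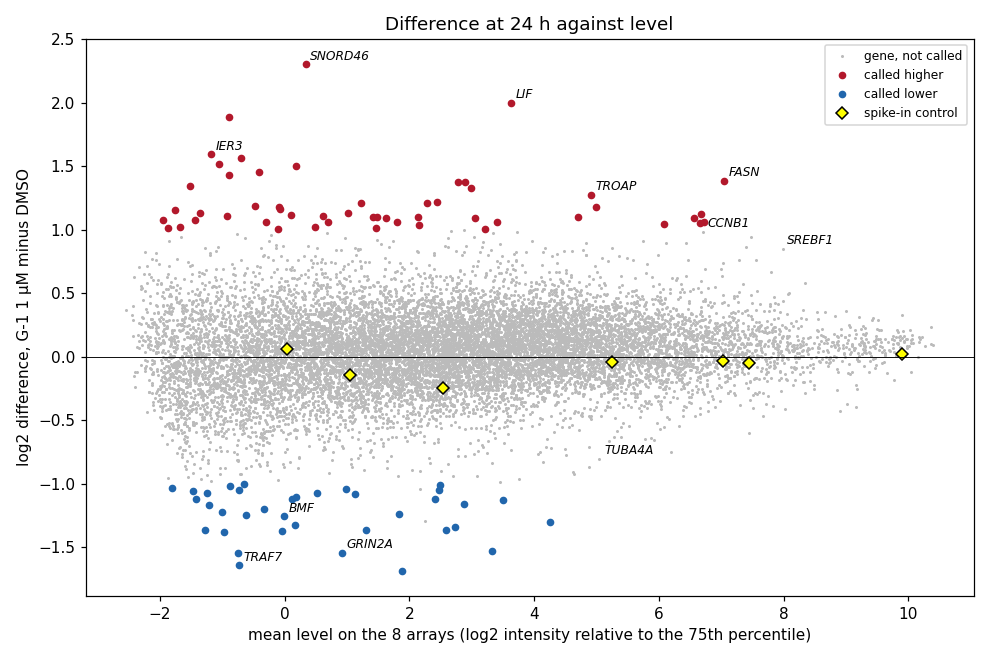
Difference between the groups (y axis, log2, G-1 1 µM minus DMSO at 24 h) against the mean level on the 8 arrays (x axis, log2 intensity relative to the 75th percentile of the array), for 13010 genes. The 52 genes called higher include 8 in the brightest of 5 equal bins, where 0 of the 36 called lower lie, and the 7 spike-in controls (yellow) lie between -0.24 and 0.06.

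ANGPTL4, a secreted inhibitor of lipoprotein lipase and a known target of PPAR factors, was the single gene with a symbol above background on all 4 treated and on 0 of the 4 DMSO arrays. It lay at 1.98, 2.20, 0.48 and 0.80 on the treated arrays. The DMSO arrays gave -3.21, -3.23, -4.06 and -4.98, not well above background. Every treated array was thus above every DMSO array, and ANGPTL4 was at least 24.5-fold higher by a bound. Its probe was above background through the treated arrays alone, so no p-value is given. The bound sets the mean of the treated arrays against the mean, over the DMSO arrays, of the higher of the probe's own level and the lowest level counted as above background on that array. In the opposite direction 407 probes, 230 of them with a symbol, were above background on all DMSO and on 0 treated arrays. The lowest level counted as above background was between -2.92 and -2.56 on the treated and between -3.45 and -3.13 on the DMSO arrays, so a dim probe could drop out of detection on the treated arrays more readily. The calcium-binding protein gene S100A5 led these by bound, at least 3.95-fold lower, with -0.82, -0.70, -0.68 and -0.70 on the DMSO arrays. SH2D2A, a T cell adaptor gene, was at least 2.34-fold lower.

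Among the genes of cholesterol and fatty acid synthesis, most members passed and nearly all of these were higher. All 20 genes of sterol synthesis were tested: 14 were higher, 0 lower and 6 did not pass, and the median difference was 0.53 against 0.05 over all genes. For SREBP control and sterol uptake the count was 6 higher and 0 lower of 12, with a median of 0.33. For fatty acid synthesis and desaturation, 11 were higher and 2 lower of 19, with a median of 0.50. These shares stand against the 22% of all genes that passed higher. The members of these lists overlap with genes that earlier work on these data had named, so their counts are no independent evidence of a direction.

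The SREBP regulators moved as follows. SREBF1, which encodes SREBP-1, lay at 8.31, 8.24, 8.47 and 8.63 on the treated arrays and at 7.56, 7.42, 7.58 and 7.68 on the DMSO arrays. The groups were apart, and SREBF1 was higher by 0.85 ± 0.09 (adjusted p = 2.56e-06), short of the fold threshold. Its second tested probe, with a mean level of -0.14, had a difference of 0.13 ± 0.12 and did not pass (limma, adjusted p = 0.442). SREBF2, which encodes SREBP-2, was higher by 0.47 ± 0.07. INSIG1, the sterol-dependent retention protein, lay at 6.94, 6.78, 7.43 and 7.27 after G-1 and at 5.94, 5.73, 6.38 and 6.03 after DMSO, a rise of 1.09 ± 0.16 (adjusted p = 7.68e-05). In both groups replicates 3 and 4 were the higher ones, and no treated array fell among the DMSO arrays. INSIG2 rose by 0.69 ± 0.16. The escort SCAP had a difference of 0.13 ± 0.10 and did not pass.

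Of 5 tested genes of uptake and transfer of cholesterol, 2 were higher (22% of all genes) and 0 lower. STARD4, a cytosolic carrier of cholesterol, lay at 2.40, 2.38, 3.11 and 2.84 after G-1 and at 1.49, 1.50, 1.90 and 1.46 after DMSO, a rise of 1.10 ± 0.16 (adjusted p = 5.03e-05). The DMSO array of replicate 3 stood above the other DMSO arrays. The lysosomal cholesterol transporters NPC1 (0.19) and NPC2 (0.10) and the HDL receptor SCARB1 (-0.05) did not pass.

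Of the enzymes of sterol synthesis, MVD, mevalonate diphosphate decarboxylase, had the largest difference, 1.21 ± 0.28 (adjusted p = 0.00251), but its groups overlapped. Its treated arrays lay at 2.69, 2.25, 3.49 and 3.12 and its DMSO arrays at 1.44, 1.17, 2.36 and 1.74. The overlap was between replicate 2 after G-1 and replicate 3 after DMSO. At each replicate number the treated array was above the DMSO array. LSS, lanosterol synthase, rose by 1.12 ± 0.18, and its second tested probe by 1.13 ± 0.21. FDFT1, squalene synthase (0.90 ± 0.13), DHCR7, the last enzyme towards cholesterol (0.87 ± 0.15), FDPS (0.74 ± 0.14) and IDI1 (0.72 ± 0.18) also passed. HMGCS1, an early synthase of the pathway, had a difference of 0.67 ± 0.26 and did not pass (adjusted p = 0.0584). With the replicate number as a block HMGCS1 passed (adjusted p = 0.00145). SQLE, squalene epoxidase, had a difference of 0.10 ± 0.14.

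FASN, fatty acid synthase, lay at 7.55, 7.27, 8.03 and 8.11 on the treated arrays and at 6.09, 6.03, 6.77 and 6.53 on the DMSO arrays. Every treated array was above every DMSO array, and FASN rose by 1.39 ± 0.18 (adjusted p = 1.88e-05), the largest among the tested members of these 3 lists. The enzymes that supply its substrates were higher too, ACLY by 0.80 ± 0.17, ACSS2 by 0.75 ± 0.17 and ACACA by 0.51 ± 0.07. ACACB, the mitochondrial acetyl-CoA carboxylase, was lower by the test (-0.51 ± 0.13), as was ACSL5 (-0.31). Of the desaturases, FADS1 rose by 1.06 ± 0.13 and FADS2 by 0.94 ± 0.10, whereas SCD had a difference of -0.10 ± 0.19 and did not pass. ACSL3 (0.83 ± 0.11) and ACSL4 (0.62 ± 0.11), which activate fatty acids to acyl-CoA, were higher. PNPLA3, a lipid droplet hydrolase gene under SREBP-1 control, rose by 1.07 ± 0.23.

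Lists of LXR and PPAR targets were read beside these, against the same 22% of all genes. Of 7 tested genes of the LXR list, 4 passed higher, with a median of 0.32: LPCAT3, which remodels phospholipids (0.78 ± 0.06), ABCA1, the sterol efflux pump (0.63 ± 0.09), APOE and MYLIP. Of 12 tested PPAR targets, 3 were higher and 1 lower, with a median of 0.15. CPT1A, the gate of mitochondrial fatty acid oxidation, was higher by 0.69 ± 0.06 and SLC25A20, the carnitine carrier, by 0.58 ± 0.09. PDK4 had a difference of 0.40 ± 0.22 and did not pass.

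Promoter sequences are shown for 2 genes of the sterol group and 2 of the mitotic group that were called, since the lists share known promoter motifs. The sequences are the 250 bases before the start of the gene from RefSeq (GRCh38.p14), written 5′ to 3′ on the strand of the gene. Capitals mark 3 motifs searched on both strands. The NF-Y box is CCAAT. The E-box, a site that SREBP-1 and many other factors can bind, has the letters CACGTG. The CHR was searched as TTTGAA. STARD4 lies on the minus strand (chr5:111512536-111512785), INSIG1 on the plus strand (chr7:155297628-155297877), CDC20 on the plus strand (chr1:43358731-43358980) and PLK1 on the plus strand (chr16:23678639-23678888).
STARD4: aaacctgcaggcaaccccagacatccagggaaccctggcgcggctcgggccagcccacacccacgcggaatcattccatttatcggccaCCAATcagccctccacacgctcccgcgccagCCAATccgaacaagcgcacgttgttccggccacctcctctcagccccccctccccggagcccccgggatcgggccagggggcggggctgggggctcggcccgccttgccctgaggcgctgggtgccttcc
INSIG1: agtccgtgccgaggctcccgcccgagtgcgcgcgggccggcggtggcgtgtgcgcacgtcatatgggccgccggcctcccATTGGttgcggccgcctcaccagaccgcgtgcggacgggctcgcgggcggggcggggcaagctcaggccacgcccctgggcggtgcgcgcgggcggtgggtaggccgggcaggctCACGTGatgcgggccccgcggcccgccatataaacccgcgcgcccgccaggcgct
CDC20: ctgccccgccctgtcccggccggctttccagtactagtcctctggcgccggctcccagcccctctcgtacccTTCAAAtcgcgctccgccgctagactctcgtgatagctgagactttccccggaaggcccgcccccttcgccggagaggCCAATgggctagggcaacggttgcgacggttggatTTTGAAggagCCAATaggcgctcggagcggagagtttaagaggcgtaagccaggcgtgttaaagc
PLK1: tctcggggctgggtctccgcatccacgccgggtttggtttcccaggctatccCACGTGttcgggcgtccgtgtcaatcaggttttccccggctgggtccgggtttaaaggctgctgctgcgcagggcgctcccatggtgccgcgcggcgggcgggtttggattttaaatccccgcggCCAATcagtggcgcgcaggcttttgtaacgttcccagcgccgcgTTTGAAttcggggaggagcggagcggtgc

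The CCAAT box was in 32% of all 35116 promoters of this length. It was in 13 of the 15 sterol synthesis promoters that the RefSeq table held and in 24 of the 27 mitotic promoters. It was also in 13 of 13 promoters of the endoplasmic reticulum chaperones, in 8 of 12 tubulin promoters, lists with 0 members higher, and in 11 of 16 promoters of DNA replication genes. The CHR letters were in 13.3% of all promoters, in 2 of the 15 sterol synthesis promoters and in 15 of the 27 mitotic promoters. The E-box letters were in 6.34% of all promoters and in 1 of the 15 sterol synthesis promoters. They were in 2 of 10 promoters of the SREBP control list and in 4 of the 27 mitotic promoters. A common core of the sterol regulatory element, TCACNCCAC, was in 0.883% of all promoters and in 0 of the 15 sterol synthesis promoters. This core was in 1 of 10 promoters of the SREBP control list (SREBF2). In the fatty acid list it was in 2 of 18 (MID1IP1 and ACSL1). A match describes the letters and is not a bound site. The promoters of FASN and AURKA were not used here.

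All 34 genes of mitotic entry and exit were tested: 26 were higher (22% of all genes passed higher), 0 lower and 8 did not pass, with a median of 0.53. Among 14 kinases and their activators, 12 were higher. AURKA, a spindle pole kinase, lay at 5.66, 5.75, 5.64 and 5.28 after G-1 and at 4.49, 4.68, 4.26 and 4.19 after DMSO. The groups were apart, and AURKA rose by 1.18 ± 0.12 (adjusted p = 1.66e-06). Its activator BORA rose by 1.01 ± 0.13 (adjusted p = 1.57e-05), just past the fold threshold, and it was no longer called in 4 of the 8 fits that left out an array. PLK1, which AURKA activates, lay at 3.86, 3.70, 3.56 and 3.27 on the treated and at 2.50, 2.83, 2.48 and 2.22 on the DMSO arrays, a rise of 1.09 ± 0.15. Replicate 4 was the lowest of both groups for AURKA, BORA and PLK1, and the groups were apart.

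Of 20 genes of the checkpoint, the spindle and the ubiquitin ligase, 14 were higher (22% of all genes). CDC20, the activator of the anaphase-promoting complex, lay at 5.41, 5.37, 5.31 and 4.88 after G-1 and at 4.23, 4.42, 4.09 and 3.86 after DMSO, and rose by 1.10 ± 0.13 (adjusted p = 6.2e-06). TROAP, a microtubule-associated spindle protein, rose by 1.27 ± 0.13, and its second tested probe by 0.72 ± 0.12. The cyclins CCNB1 (0.98 ± 0.12) and CCNA2 (0.97 ± 0.11), TPX2, which targets AURKA to the spindle (0.85 ± 0.11), and the checkpoint kinase BUB1B (0.81 ± 0.12) were higher but under the fold threshold. The 8 members of the whole list that did not pass were the kinases CDK1 (-0.04 ± 0.10) and AURKB (0.18), the checkpoint gene MAD2L1 (0.28), CENPF (0.27), ASPM (0.34), the conjugating enzyme UBE2C (-0.05 ± 0.12), the topoisomerase TOP2A (-0.36 ± 0.16) and MKI67 (0.52 ± 0.21, adjusted p = 0.0682). With the replicate number as a block MKI67 passed (adjusted p = 0.0205). In bulk RNA, more cells in a cell cycle phase and more of an RNA per cell cannot be told apart.

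Of 20 tested genes of DNA replication, 8 were higher (22% of all genes) and 1 lower, with a median of 0.25. The helicase subunit MCM7 was higher by 0.36 ± 0.10. Of 12 tubulins, the building blocks of microtubules, 0 were higher and 7 lower (10.1% of all genes passed lower), with a median of -0.26. TUBA4A lay at 4.73, 4.62, 4.59 and 4.64 after G-1 and at 5.44, 5.17, 5.62 and 5.56 after DMSO. The groups were apart, and its fall in log2 level was -0.80 ± 0.10 (adjusted p = 9.19e-06). TUBB2B was lower (-0.78 ± 0.11), whereas TUBB (-0.05 ± 0.07) and TUBB4B (0.20 ± 0.11) did not pass. TUBA1B was lower by the test (-0.22 ± 0.07), and it no longer passed under 6 alternatives, among them the slide as a random block and centring on the spike-ins. Tubulin genes are close in sequence, and probes may share signal between members.

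Of 15 immediate early genes, 10 passed higher (22% of all genes), 1 lower and 4 did not pass, with a median of 0.65. EGR1, a zinc finger transcription factor, lay at 3.71, 3.63, 3.37 and 3.15 on the treated and at 2.23, 2.37, 2.06 and 1.71 on the DMSO arrays. The groups were apart, and EGR1 rose by 1.37 ± 0.24 (adjusted p = 0.000347). FOSL1, an AP-1 subunit, lay at 3.94, 3.85, 3.56 and 3.28 after G-1 and at 2.34, 2.60, 2.25 and 2.14 after DMSO, and rose by 1.32 ± 0.18. IER3 (1.59 ± 0.22) and FOS (1.11 ± 0.21) were also called. FOSL2 was lower by the test (-0.30 ± 0.08), and JUN had a difference of -0.13 ± 0.08 and did not pass.

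Of the 11 ERK feedback genes, 9 were higher (22% of all genes passed higher) and 2 did not pass. Their median was 0.86, the highest of the lists. SPRY4, an inhibitor of receptor tyrosine kinase signalling, lay at 0.47, 0.71, 0.26 and -0.19 after G-1 and at -0.87, -0.90, -1.30 and -1.50 after DMSO, and rose by 1.45 ± 0.20 (adjusted p = 3.61e-05). SPRY1 rose by 1.50 ± 0.16 and its second tested probe by 0.67 ± 0.15. The ETS factors ETV5 (1.16 ± 0.11) and ETV4 (1.15 ± 0.19) rose, and the ERK phosphatases DUSP6 (0.92 ± 0.17), DUSP4 (0.86 ± 0.15) and DUSP5 (0.76 ± 0.14) were higher. SPRED1 had a difference of 0.13 ± 0.11. PHLDA1 had a difference of -0.23 ± 0.10 (adjusted p = 0.0749), and with the replicate number as a block it was lower by the test (adjusted p = 0.0353).

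Of 8 tested inflammatory cytokines, 5 were higher (22% of all genes) and 1 lower (10.1% of all genes), with a median of 0.66. LIF, a cytokine of the interleukin 6 family, lay at 5.15, 4.97, 4.46 and 3.95 after G-1 and at 3.04, 3.21, 2.46 and 1.83 after DMSO. LIF rose by 2.00 ± 0.31 (adjusted p = 0.000116), the second largest rise of the tested genes. IL11, of the same family, rose by 1.10 ± 0.13, and the chemokine CXCL2 by 1.06 ± 0.13, whereas IL6 had a difference of -0.01 ± 0.10. HBEGF, a ligand of the EGF receptor (1.10 ± 0.17), the vasoconstrictor EDN1 (1.21 ± 0.23) and WNT5B (1.12 ± 0.14) rose. Of 12 genes of the TGF-beta and YAP list, 4 were higher (22% of all genes) and 0 lower, with a median of 0.27. NFKBIA, the inhibitor of NF-κB, was lower by the test (-0.55 ± 0.10).

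**Figure D2:**
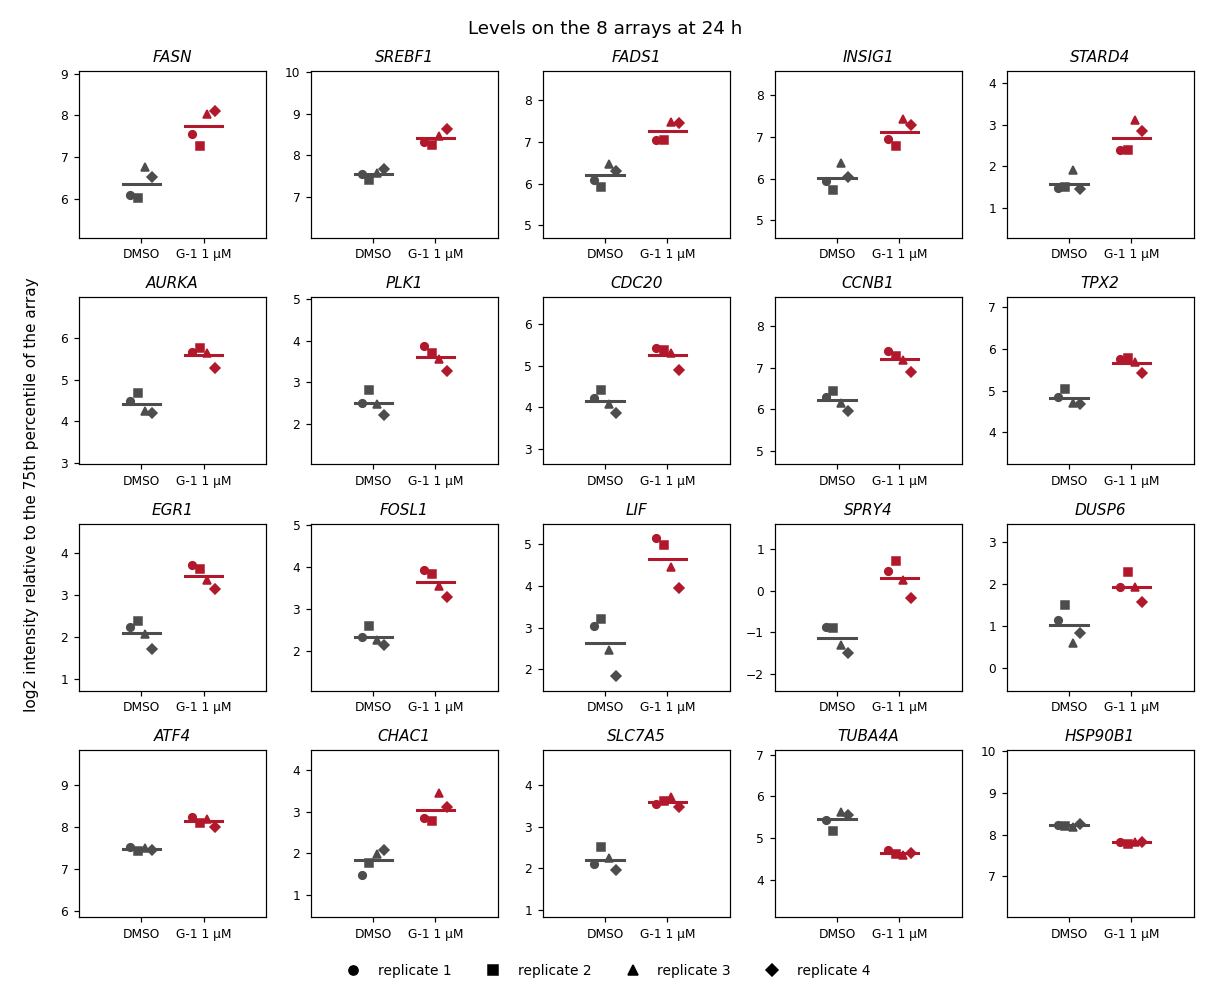
Levels of 20 genes on the 4 DMSO (grey) and 4 G-1 1 µM (red) arrays at 24 h, as log2 intensity relative to the 75th percentile of the array, with the replicate number as the symbol and the group mean as a line; every panel spans 4 log2 units. The first row holds sterol and fatty acid genes, the second mitotic genes, and the groups are apart in all panels; FASN lies between 7.27 and 8.11 after G-1 and between 6.03 and 6.77 after DMSO.

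Genes under ATF4, the factor of the integrated stress response, were mostly higher. Of 16 tested, 12 were higher (22% of all genes) and 1 lower, with a median of 0.52. ATF4 itself was higher by 0.66 ± 0.08. SLC7A5, a transporter of large neutral amino acids, lay at 3.55, 3.62, 3.70 and 3.46 after G-1 and at 2.10, 2.52, 2.25 and 1.96 after DMSO, and rose by 1.37 ± 0.17 (adjusted p = 1.03e-05). CHAC1, which degrades glutathione, rose by 1.22 ± 0.17, and PSAT1, of serine synthesis, was higher by 0.63 ± 0.09. The called genes SLC6A9, a glycine transporter (1.09 ± 0.10), and JDP2, an AP-1 repressor (1.19 ± 0.13), were higher as well. Of 14 chaperones of the endoplasmic reticulum, 0 were higher, 3 lower (10.1% of all genes) and 11 did not pass, with a median of -0.05. HSPA5 fell by 0.42 ± 0.09 and HSP90B1 fell by 0.41 ± 0.07, and neither passed with centring on the spike-ins.

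The other lists were mixed. Their counts stand against the 22% of all genes that passed higher and the 10.1% that passed lower. Of 16 genes of the HIF and glycolysis list, 10 were higher and 0 lower, with a median of 0.43, led by PFKFB4 (0.84 ± 0.18). Of 12 p53 targets, 3 were higher and 1, BTG2, lower (-0.51 ± 0.11), near the shares over all genes. Their median of -0.02 turned to 0.02 with spike-in centring. CDKN1A, the cell cycle inhibitor p21 (0.45 ± 0.17, adjusted p = 0.0487), was among the 3 and no longer passed under 10 of the alternatives. Of 10 NRF2 targets, 4 were higher and 1 lower. Of 9 interferon-stimulated genes, 0 were higher and 2 lower (10.1% of all genes passed lower), IFIT2 (-0.96 ± 0.19) and IFI44 (-0.45 ± 0.16), and IFI44 no longer passed under 9 alternatives. Of 9 tested genes of the Notch and neural lineage list, 4 were higher and 2 lower. FABP7, a brain fatty acid-binding protein (1.05 ± 0.20), HES6 (0.76 ± 0.21), JAG1 (0.35) and HES4 (0.28) were higher, and SOX2 (-0.38 ± 0.09) and SOX4 (-0.47 ± 0.11) lower.

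**Figure D3:**
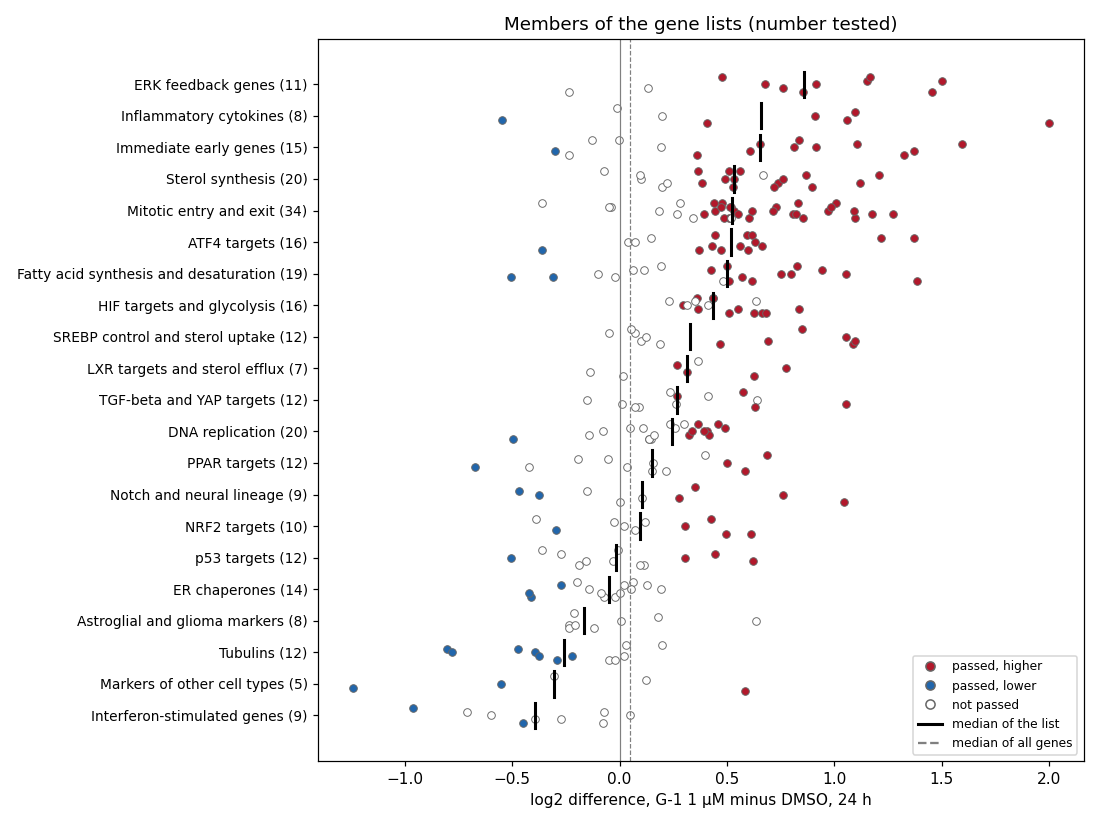
Differences (x axis, log2, G-1 1 µM minus DMSO at 24 h) of the tested members of 21 gene lists, 1 point per gene, filled where the gene passed at an adjusted p under 0.05; the black bar is the median of the list and the dashed line the median of all genes (0.05). ERK feedback, cytokine, immediate early, sterol and mitotic lists lie to the right of the dashed line, tubulins and interferon-stimulated genes to the left.

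Outside the lists, small nucleolar RNAs led the rises. SNORD46 lay at 2.23, 1.56, 1.46 and 0.70 after G-1 and at -0.90, -0.60, -0.87 and -0.89 after DMSO, and rose by 2.30 ± 0.33 (adjusted p = 4.53e-05). SNORD71 rose by 1.89 ± 0.21 and SNORD91A by 1.08 ± 0.21. Such RNAs guide the modification of other RNAs and lie in introns of host genes. Of the genes called higher, 4 of 52 (7.69%) were small nucleolar RNAs, which made up 0.984% of the genes tested. Of these, SNORA2A was no longer called in 5 and SNORD91A in 3 of the 8 fits that left out an array. The other large rises were OTUD7A, a deubiquitinase gene (1.56 ± 0.17), TF, the iron carrier transferrin (1.52 ± 0.23), and the noncoding genes SPRY4-IT1 (1.43 ± 0.31), which lies within SPRY4, and PSMD6-AS2 (1.35 ± 0.17).

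The genes called lower differed in kind. Long noncoding RNAs made up 8 of the 36 (22.2%, against 6.89% of the genes tested) and transcribed pseudogenes 5 (13.9%, against 1.69%). TRAF7, a ubiquitin ligase gene, lay at -1.17, -1.92, -1.91 and -1.21 after G-1 and at -0.28, 1.13, -0.23 and -0.26 after DMSO (-1.64 ± 0.45, adjusted p = 0.00902). The groups were apart, and the DMSO array of replicate 2, the one on slide 2, stood above the other DMSO arrays. In 33 of the 36 genes called lower, DMSO replicate 2 was the highest or the lowest DMSO array (91.7%), against 63.3% of all genes.

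Differences between slides were therefore measured on arrays that the comparison did not use, the 12 of the first session that are not DMSO 24 h, with the group means in the fit. Slide 2 differed from slide 1 in 554 of the 13010 genes (4.26%). Among the 36 genes called lower, 26 differed between these slides (72.2%), 14 with slide 2 above and 12 with slide 2 below slide 1. Among the 52 called higher, 1 gene differed (1.92%), TF, by 0.55 ± 0.12. The median absolute slide difference was 0.63 in the genes called lower, 0.06 in those called higher and 0.08 over all genes. Of the 15 largest falls, 12 differed between slides, among them TRAF7 (1.52 ± 0.09), CCM2L (1.65 ± 0.14), FTHL17 (1.05 ± 0.08) and PYY2 (-0.71 ± 0.06). Slide 3 held treated arrays alone, so its own offset in these genes cannot be told apart from the treatment. The lists of PPAR, ATF4 and p53 targets, chaperones and markers of other cell types each had 1 member that differed between slides 1 and 2. Every other list had 0. With 4.26% of all genes differing, 0 members in a list of this size does not set the list apart.

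Of the genes called lower, 10 did not pass the test between slides 1 and 2. They were HMHB1, GRIN2A, BMF, PTPRD, PTPRN2-AS1, ENPP7P13, HMCN1, CELA1, MOCS3 and KRT13, with a median difference of -1.11. This does not show equal slides, since the slide difference was -0.23 ± 0.28 for HMHB1 and -0.24 ± 0.23 for MOCS3. In the 8 fits that left out an array, HMCN1 and MOCS3 were no longer called in 3, KRT13 in 2, and CELA1 and PTPRN2-AS1 in 1. GRIN2A, a subunit of the NMDA receptor, lay at -0.46, 0.17, 0.25 and 0.61 after G-1 and at 1.88, 1.70, 1.63 and 1.53 after DMSO. It fell by 1.54 ± 0.17 in log2 (limma, adjusted p = 3.21e-06), and its second tested probe fell by 0.74 ± 0.14. BMF, a BH3-only promoter of apoptosis, lay at -1.07, -0.50, -0.65 and -0.34 after G-1 and at 0.82, 0.58, 0.47 and 0.59 after DMSO, and fell by 1.25 ± 0.12 (adjusted p = 7.41e-07). In both genes the groups were apart. PTPRD, a receptor tyrosine phosphatase, was lower by the test (-1.12 ± 0.13).

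**Figure D4:**
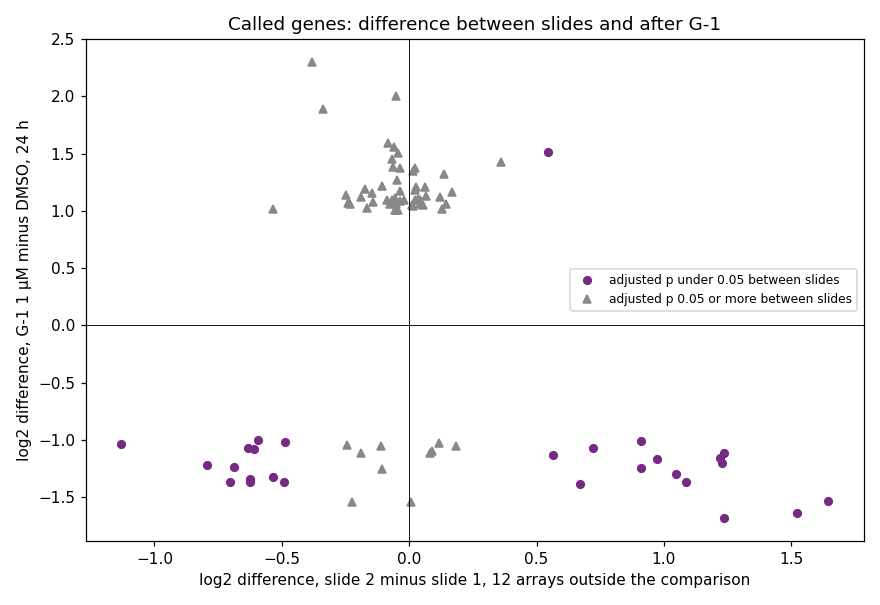
The 88 called genes by their difference after G-1 (y axis, log2, G-1 1 µM minus DMSO at 24 h) and their difference between slides 2 and 1 on the 12 arrays outside the comparison (x axis, log2); circles mark genes that differed between these slides. Of the 36 genes called lower 26 are circles, on both sides of 0, and of the 52 called higher 1 is (TF).

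The same genes were read in cells given the IC50 dose over 24 h, whose arrays lay on slides 1 and 2 with those of DMSO. Both doses were set against the same DMSO arrays, so the values are given side by side. At the IC50 dose, 36 genes (0.277%) passed against DMSO. FASN had a difference of 1.16 at the IC50 dose and 1.39 at 1 µM, SREBF1 1.02 and 0.85, STARD4 1.04 and 1.10, and FADS1 0.91 and 1.06. Over the 20 sterol synthesis genes the median was 0.40 at the IC50 dose and 0.53 at 1 µM. The mitotic list had a median of -0.07 at the IC50 dose against 0.53 at 1 µM, and the ERK feedback list 0.06 against 0.86. AURKA had a difference of -0.04 at the IC50 dose, PLK1 0.11, CDC20 -0.08 and SPRY4 0.06.

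The difference between the doses at 24 h was tested in the same fit, where 3660 genes (28.1%) passed. Of the 34 mitotic genes 29 passed, all with the higher value at 1 µM, and of the 11 ERK feedback genes 9, likewise. In sterol synthesis 1 of 20 passed and in fatty acid synthesis 3 of 19. AURKA was higher at 1 µM than at the IC50 dose by 1.21 ± 0.12 (adjusted p = 4.4e-06) and LIF by 1.59 ± 0.31. For FASN the difference between doses was 0.23 (adjusted p = 0.36) and for STARD4 0.06 (adjusted p = 0.80), which does not show that the doses act alike. The arrays of the doses lay on different slides and in different sessions, and dose and slide cannot be told apart.

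The effect of 1 µM G-1 was then set against that at 72 h, with DMSO of 72 h as the control there. Both treated groups lay on slide 3, so a constant offset of that slide drops out of the difference between durations. Over all genes, 4806 (36.9%) passed this test. Of 14 genes that the study's text names, 13 were tested and 3 differed: SREBF1, FASN and FADS1, all with the larger value at 24 h. SREBF1 was 0.85 higher than DMSO at 24 h and had a difference of -0.73 at 72 h, so that the effects differed by 1.58. On the dimmer second probe of SREBF1 the effects differed by 0.29, which did not pass (limma, adjusted p = 0.203). FASN had 1.39 at 24 h and 0.35 at 72 h, a difference of 1.04. FADS1 had 1.06 and 0.28, a difference of 0.78. With the replicate number as a block 6 of the 13 passed, and with the block within each duration 10.

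Other genes were larger at 72 h. CXCL2 had a difference from DMSO of 1.06 at 24 h and 3.14 at 72 h (adjusted p = 5.9e-08 for the difference of the effects), IER3 1.59 and 3.46, and IL11 1.10 and 2.88. Of the 34 mitotic genes, 5 passed the test of the difference between durations. MAD2L1 had 0.28 at 24 h and 1.02 at 72 h, and TTK, a checkpoint kinase, 0.72 and 1.23. AURKA had 1.18 and 1.60, CDC20 1.10 and 1.37 and PLK1 1.09 and 1.06, and these 3 did not pass. With replicate numbers blocked AURKA passed (adjusted p = 0.0308), AURKA (0.0193) and CDC20 (0.0419) passed with the block within each duration, and PLK1 did not pass in either. TF, higher at 24 h at both doses (1.72 at the IC50 dose), had a difference of -0.68 at 72 h. All 36 genes called lower at 24 h were below DMSO at 72 h too, with a median of -1.40, and 51 of the 52 called higher were above it, with a median of 1.61. The treated arrays of both durations lay on slide 3 and the DMSO arrays of both on slides 1 and 2, so here too treatment and slide cannot be told apart.

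**Figure D5:**
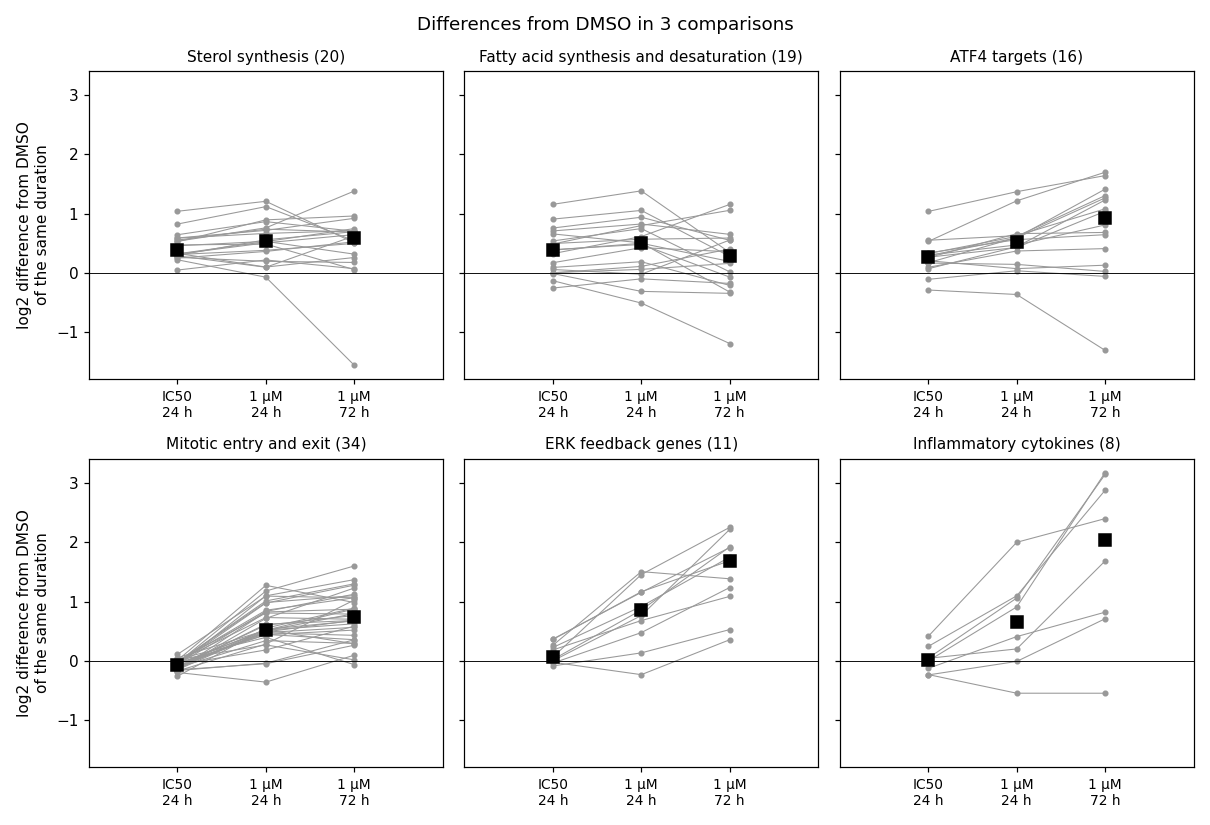
Differences from DMSO of the same duration (y axis, log2) of the tested members of 6 lists (number in parentheses) for the IC50 dose at 24 h, 1 µM at 24 h and 1 µM at 72 h (x axis); grey lines join a gene and black squares are medians. Sterol and fatty acid lists have medians of 0.40 and 0.39 at the IC50 dose and 0.53 and 0.50 at 1 µM for 24 h, whereas mitotic, ERK feedback and cytokine genes have medians between -0.07 and 0.06 at the IC50 dose and between 0.53 and 0.86 at 1 µM.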

How the data were processed

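RNA of U251 cells was measured on 1-colour Agilent arrays in 6 groups of 4, and the groups were taken from the sample titles. For both the 24 h IC50 and the 72 h 1 µM arrays the duration label contradicts the title. The labels and the methods differ in the DMSO concentration. The authors deposited, per array, the intensity of each spot after the background subtraction of Feature Extraction (10.7.3.1 in the submitters' processing notes, another version per the file headers), and normalized log2 values of the same probes. This log2 table matched log2 intensity minus the 75th percentile of the array, centred on the median of each probe, with a median absolute difference of 0.00189, and its column medians ran from -0.345 to 0.556. Flags mark spots well above background. Saturated spots numbered 0 on every array.

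Outlier spots were left out, spots of a probe were averaged, and the 75th percentile over distinct probes was subtracted. Of 58201 probes, 83 lacked a value on at least 1 array, and 34981 of the 58118 kept were matched to 24817 RefSeq symbols. Probes that passed this flag on each of the 8 arrays were fitted with limma 3.58.1 in R 4.3.3, as 6 group means over 24 arrays. Adjustment was by Benjamini-Hochberg over 19833 probes. The fit was tested on simulated data. A bound uses the lowest signal well above background.

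The members and gene lists were chosen with earlier results of these data known. Genes were named as the 15 largest rises and 15 largest falls among called genes whose groups did not overlap, as genes the study's text names, as list members, or as the 8 largest bounds per direction. Of 10 other tested probes of called genes, that of PRR36 did not pass. Arrays with the same replicate number deviated together (correlations 0.232, 0.373, 0.317 and 0.417). The highest correlations with another number were 0.0272, 0.305, 0.312 and 0.164. The numbers may thus pair the arrays, by a narrow margin for replicate 3. The main fit left the replicate number out. Alternatives were other scalings, the deposited table, normexp, other filters, the methods' unpaired test, blocks, and fits without each array. The number of arrays limits the precision. Some named genes are not reported here.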

Additional observations from a re-analysis of the deposited data

Results flagged for a closer look

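In 292 pairs of a named gene and a group, the gap between the highest or lowest array and its neighbour, divided by the range of the group, was above Dixon's critical value for 4 samples in 15 (5.14%). Chance flags about 1 in 20 such groups. Among the DMSO arrays, replicate 2 stood apart for TRAF7 (1.13), HNRNPM (3.71), GPC3 (0.317), RBFOX3 (1.79), CELA1 (-0.514) and SNORD46 (-0.598), replicate 3 for STARD4 (1.9) and FOXM1 (4.62), replicate 1 for LPCAT3 (4.67) and replicate 4 for TUBB4B (4.95). Replicate 2 is the DMSO array on slide 2. Among the treated arrays, replicate 4 stood apart for PSMD6-AS2 (-1.28), ETV5 (0.265) and CDKN1A (-0.9), replicate 2 for TOP2A (3.97) and replicate 1 for IFI44 (2.87). All these values are levels, as log2 intensity relative to the 75th percentile of the array.

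The effect of 1 µM G-1 differed between 24 h and 72 h by a test of the difference itself for 3 genes. These were SREBF1 (1.58), FASN (1.04) and FADS1 (0.776), in log2, as 24 h minus 72 h. For SREBF1 the effect changed sign, from 0.85 at 24 h to -0.73 at 72 h. On its dimmer second probe the effects differed by 0.29, which did not pass.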

How the results depend on the processing

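The 88 called genes became 26 with normexp and quantile normalization, 194 with probes above background on all arrays of either group, 664 without a filter, 31 in the brighter part of the probes and 4168 without a fold threshold. The filters changed which probes were tested and how many, and the cause of the changed counts was not tested. Leaving out each array in turn gave 78 to 115. Under the other alternatives the count was within 1.5 times of 88. Among them were the methods' unpaired test (89, and 82 after Benjamini-Hochberg), the replicate block (88) and the slide as a random block (89). Another, chosen after seeing the data, kept the called genes that did not pass the test between slides 1 and 2. These were 61, of which 51 higher and 10 lower. The 3 of 13 genes that differed between durations became 6 with the replicate block and 10 with the block within each duration, which was also chosen after seeing the data. Leaving out each array gave 3 to 5, with 5 without G-1 1 µM 24 h replicate 2 and without DMSO 24 h replicate 3.

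Of 146 named genes, 0 that passed changed direction. With centring on the spike-ins, 31 no longer passed at an adjusted p under 0.05, CCM2L, SREBF2 and MYC among them. The replicate block added 4 genes (HMGCS1, MKI67, PHLDA1 and GFAP) to those that passed at 24 h and changed no other of these. The deposited table changed 0. VEGFA no longer passed under 8 settings, IFI44 under 9 and CDKN1A under 10. Dim probes limit the reading, since the level counted as above background was higher on the treated arrays.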
